A study of Mus musculus with 65 samples.

Results

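The chromosome axis protein SYCP3 was mapped with and without HORMAD1, and the regions described here are its peaks in wild-type and Hormad1KO testes. The wild-type list held 1911 peaks and the Hormad1KO list 823, so that 2734 of the 97260 regions in the 24 lists analysed belong to this comparison. Peaks of both lists were compared by position, and a peak counted as shared where it overlapped a peak of the other list by at least 1 bp. By that rule 524 wild-type peaks were shared and 1387 were wild-type only, while 520 Hormad1KO peaks were shared and 303 were knockout only.

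The series profiled proteins of meiotic recombination by chromatin immunoprecipitation and sequencing (ChIP-seq) in 65 samples of mouse testis, which fall into 36 groups of 1 antibody in 1 genotype. All groups used here came from C57BL/6JCrl whole testis, labelled L/Z for leptotene and zygotene spermatocytes. The controls carried no mutation (genotype wild-type), and the mutants were Hormad1tm1.2Atot (Hormad1KO), with 2 samples per group for SYCP3. Where other knockouts are set beside them, these were B6;129P2-Prdm9tm1Ymat/J (Prdm9KO), Spo11tm1Mjn (Spo11KO), Mei4tm1Bdm (Mei4KO) and Iho1tm1.2Atot (Iho1KO). Controls and mutants alike had their spermatogenesis synchronised. Male pups were fed a retinoic acid blocker, written WIN 18,466 in the labels' protocols, from day 1.5 for 7 to 10 days. They then received 1 dose of retinoic acid and gave their testes 8 days post-injection. At that time 80 to 95% of the cells were in the 2 stages named, per the labels' protocols, so the chromatin is that of a mixed tissue enriched for them. Peak lists hold no expression values, and HORMAD1 of Hormad1KO was not analysed here, so neither the cell stage nor the loss of the protein was checked.

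During early meiotic prophase the chromatin of each chromosome is arranged as loops along a protein axis. SYCP3 is a filament-forming structural protein of this axis, and HORMAD1 is a HORMA-domain protein that associates with the axis of unsynapsed chromosomes and is needed for normal numbers of DNA double-strand breaks. Breaks are made by SPO11 together with partners that include MEI4 and the HORMAD1-interacting protein IHO1. In mice PRDM9 places them at hotspots, and DMC1 then binds the single-stranded DNA there. CTCF is a zinc finger protein that halts loop extrusion by cohesin and so sets the anchors of many chromatin loops.

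Sequences are shown for 4 gene starts that lay in knockout-only SYCP3 peaks, because gene starts were more common in these peaks than in shared ones and several of them belong to histone genes. Each is the RefSeq promoter (build GRCm38.p6), from 250 bases before to 50 after the annotated start, on the gene's own strand. The first 2 belong to knockout-only peaks with a CTCF peak, no hotspot and a high CTCF score (6.10 for Aqr and 5.84 for Eif3f). Aqr, a gene for a splicing helicase, lies at chr2:114175290-114175589 on the − strand, and Eif3f, a subunit of translation initiation factor eIF3, at chr7:108934165-108934464 on the + strand. Capitals mark AGGNGGC or its reverse complement GCCNCCT, letters found within the binding motif of CTCF.
Aqr: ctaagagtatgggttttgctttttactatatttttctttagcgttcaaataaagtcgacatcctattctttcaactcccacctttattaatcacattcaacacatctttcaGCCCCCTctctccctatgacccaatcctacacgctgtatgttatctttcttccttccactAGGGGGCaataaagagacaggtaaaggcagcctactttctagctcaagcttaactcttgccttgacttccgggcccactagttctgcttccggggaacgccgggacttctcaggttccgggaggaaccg
Eif3f: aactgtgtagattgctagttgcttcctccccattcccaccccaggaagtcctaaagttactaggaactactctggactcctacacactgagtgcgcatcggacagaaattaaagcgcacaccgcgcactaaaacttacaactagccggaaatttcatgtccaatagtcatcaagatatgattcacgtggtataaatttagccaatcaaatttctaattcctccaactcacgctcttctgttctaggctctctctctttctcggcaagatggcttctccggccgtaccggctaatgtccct
The window of Aqr held 2 matches, while these letters were absent from the window of Eif3f. The other 2 sequences are starts of histone H4 genes, chosen after their values were seen: H4c2 at chr13:23756687-23756986 on the + strand and H4c8 at chr13:23530794-23531093 on the + strand. Capitals mark GGTCCG or its reverse complement CGGACC, letters searched after both sequences had been seen.
H4c2: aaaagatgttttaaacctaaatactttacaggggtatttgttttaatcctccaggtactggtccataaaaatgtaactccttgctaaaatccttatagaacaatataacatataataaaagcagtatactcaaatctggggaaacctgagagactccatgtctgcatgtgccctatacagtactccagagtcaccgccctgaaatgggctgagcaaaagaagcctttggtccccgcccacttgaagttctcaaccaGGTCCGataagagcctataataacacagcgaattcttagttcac
H4c8: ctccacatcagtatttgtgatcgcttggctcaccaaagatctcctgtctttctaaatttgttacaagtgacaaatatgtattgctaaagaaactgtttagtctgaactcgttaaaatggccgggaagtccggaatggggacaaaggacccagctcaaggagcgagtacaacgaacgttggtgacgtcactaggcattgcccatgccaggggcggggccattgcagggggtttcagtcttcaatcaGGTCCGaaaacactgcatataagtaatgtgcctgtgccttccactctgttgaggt
Each H4 window held 1 match, which begins 6 bases after the start in H4c2 and 5 bases before it in H4c8. The same letters stood in 9 of the 9 promoters of H4 genes with a Hormad1KO SYCP3 peak, in 1 of the 2 promoters of H4 genes without one, and in 8.25% of all 32851 promoters. The letters were picked from 2 of these promoters, and H4 copies can be alike in sequence, which was not measured. The counts therefore describe H4 genes and not SYCP3 peaks. A match describes the letters and does not show binding.

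Most wild-type SYCP3 peaks had no counterpart in Hormad1KO, and break hotspots were more common, and CTCF sites less common, among these than among the peaks that had one. Of all wild-type peaks 27.4% were found again (Wilson 95% interval 25.5 to 29.5), and of the Hormad1KO peaks 63.2% (59.8 to 66.4) lay at a wild-type peak. These 2 shares are the classification itself and carry no test. Each peak was assigned to 1 of 4 kinds of site by the wild-type lists: a DMC1 hotspot without CTCF, a CTCF peak without a hotspot, both, or neither. Hotspots made up 911 of the 1387 wild-type-only peaks (65.7%) and 137 of the 524 shared ones (26.1%). CTCF sites made up 147 wild-type-only peaks (10.6%) and 250 shared ones (47.7%). Counted at any hotspot, with or without CTCF, the shared peaks stood at 30.5% and the wild-type-only peaks at 71.2% (-40.6 points, -45.1 to -35.9), and at any CTCF peak at 52.1% and 16.1% (36.0 points, 31.3 to 40.6). These sizes depended on the peaks and the overlap taken. In the wider 50% of peaks, hotspots were the larger part of both classes, with 63.9% of the shared and 80.9% of the wild-type-only peaks (-17.0 points), and CTCF sites held 27.2% and 11.5% (15.7 points). Where the shorter of peak and hotspot had to be covered by 50% or more, the shares at hotspots were 28.8% and 49.3% (-20.5 points). The remaining wild-type peaks were 76 and 23 at both kinds of site and 253 and 114 at neither, given as wild-type only and shared.

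**Figure D1:**
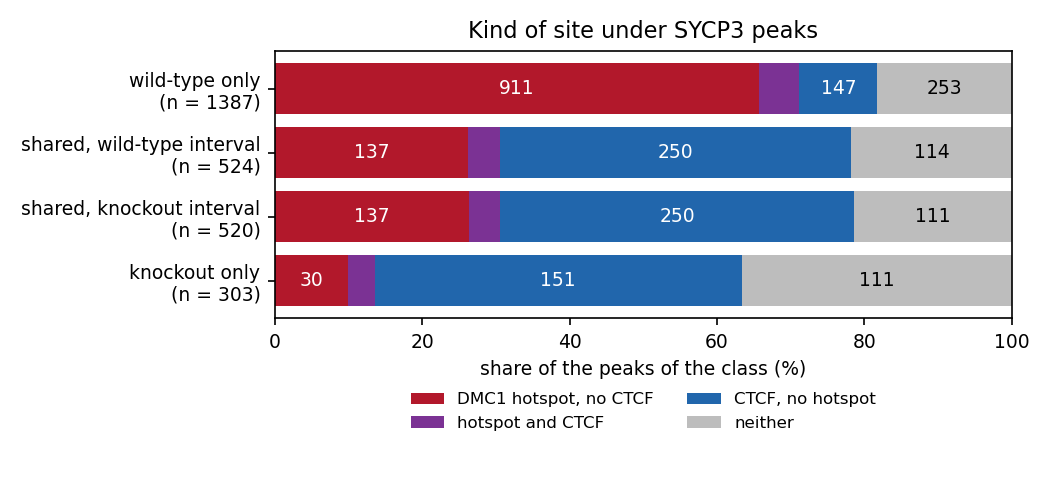
Share of each kind of site (horizontal axis, % of the peaks of the class) among wild-type-only, shared and knockout-only SYCP3 peaks (rows), with peak numbers inside the larger segments. Hotspots without CTCF fill 65.7% of the wild-type-only bar and 9.90% of the knockout-only bar.

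The share of wild-type peaks found again differed with the kind of site under them. Of the 1048 peaks at a hotspot without CTCF, 137 were found again (13.1%, 11.2 to 15.2), against 250 of 397 at a CTCF peak without a hotspot (63.0%, 58.1 to 67.6). The difference was 49.9 percentage points (Newcombe 95% interval 44.6 to 54.9), and it was between 34.0 and 55.3 points under the 8 alternatives. Peaks at both kinds of site were found again in 23 of 99 cases (23.2%, 16.0 to 32.5) and peaks at neither in 114 of 367 (31.1%, 26.5 to 36.0). Each group has 1 peak list, so these intervals cover counting error only, treat peaks as independent and stand in for no replicate. List depth and peak threshold are not known, and a peak that is missing from a list may lie under its threshold.

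The same wild-type list was set against the SYCP3 lists of the other knockouts, which therefore share their control. For SYCP3, 2 samples stand behind each of wild type, Hormad1KO and Mei4KO, and 1 behind each of Iho1KO, Prdm9KO and Spo11KO. In Mei4KO, whose list of 1125 peaks is longer than that of Hormad1KO, 1.43% of the hotspot peaks (0.869 to 2.35; 15 of 1048) and 46.6% of the CTCF peaks (41.7 to 51.5) were found again. Prdm9KO, with 607 peaks, had 1.15% of the hotspot peaks and 27.7% of the CTCF peaks. In Iho1KO, with 5380 peaks, the shares were 10.5% and 76.8%. Spo11KO, with 2369 peaks, stood at 34.0% (31.2 to 36.9) of hotspot peaks and 45.8% of CTCF peaks. CTCF sites thus had the higher share in all 5 knockouts, by 11.9 (Spo11KO) to 66.3 points (Iho1KO). For hotspot peaks Spo11KO had the highest share, the intervals of Hormad1KO and Iho1KO overlapped, and Mei4KO and Prdm9KO had the lowest. The lists are of unequal length, and the differences between knockouts were not tested.

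Hotspot peaks that were kept without HORMAD1 lay at the hotspots with the highest DMC1 values in Hormad1KO itself. The DMC1 value is a signal per hotspot deposited by the authors in a unit they did not name, so it was used only to rank hotspots within a list. Among the 133 shared hotspot peaks with a Hormad1KO DMC1 hotspot, its value ran from 26.0 to 10257 with a median of 1753, and the median peak stood at percentile 97.7 of the Hormad1KO list. For the 860 wild-type-only peaks with one, it ran from 10.5 to 9403 with a median of 291.5, at percentile 82.9. The groups overlapped, and in 86.7% of all pairs of 1 shared and 1 wild-type-only peak the shared one had the higher value. By the wild-type DMC1 value the order was the same but less complete: the medians were 4019.5 for the shared and 2508 for the wild-type-only peaks, and the shared one was higher in 65.5% of pairs.

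**Figure D2:**
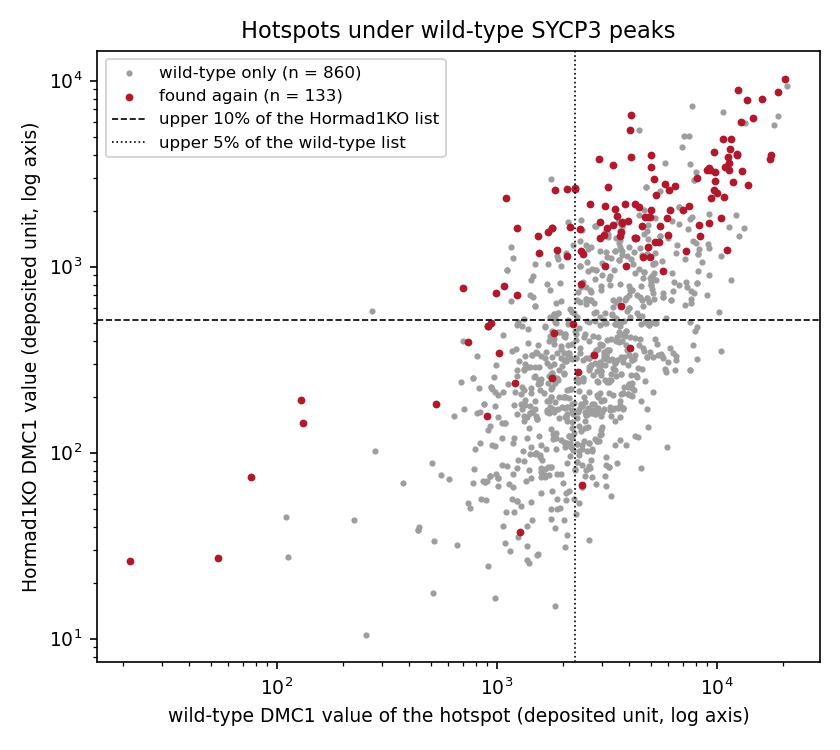
Wild-type (horizontal) against Hormad1KO (vertical) DMC1 value, both in the deposited unit on log axes, of hotspots under wild-type SYCP3 peaks without CTCF. Each point is 1 SYCP3 peak, and the 133 peaks found again lie mostly above the dashed line that marks the upper 10% of the Hormad1KO DMC1 list, at a median of 1753 against 291.5 for the 860 wild-type-only peaks.

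Across the ranks of the Hormad1KO list the share of hotspot peaks found again stayed low and then rose near the top. It was 5.48% (4 of 73) in the lower 50% of that list, 1.77% (4 of 226) between percentiles 50 and 75, 3.88% (13 of 335) between 75 and 90, and 6.08% (9 of 148) between 90 and 95. Between percentiles 95 and 98 it was 34.1% (26.4 to 42.9; 42 of 123), and in the top 2% it was 69.3% (59.0 to 78.0; 61 of 88). The 55 peaks with no Hormad1KO DMC1 hotspot gave 4 found again (7.27%). Hotspots in the upper 10% of the list therefore accounted for 112 of the 137 kept peaks. Against all other hotspot peaks their share was higher by 27.6 points (22.7 to 32.7; 112 of 359 against 25 of 689), a split that was chosen after the data had been seen.

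**Figure D3:**
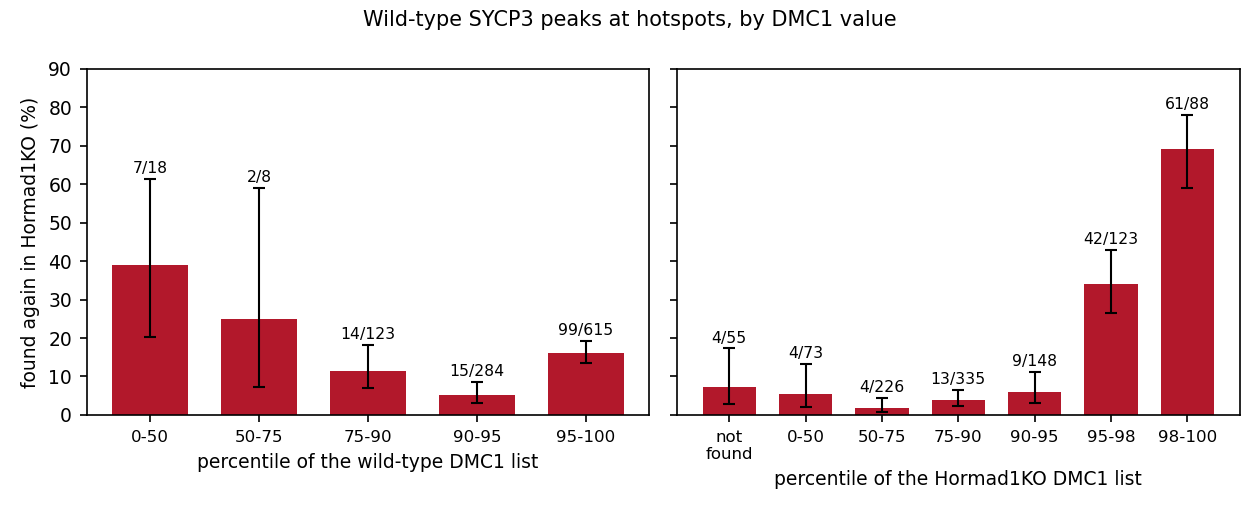
Share of wild-type SYCP3 hotspot peaks found again in Hormad1KO (vertical axis, %) by percentile class of the wild-type (left) and the Hormad1KO (right) DMC1 list, with Wilson 95% intervals and peak counts. On the right the share stays at or under 7.27% up to percentile 95 and reaches 69.3% in the top 2%.

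The split by the Hormad1KO value was also seen among hotspots of like rank in the wild type. Within the upper 5% of the wild-type DMC1 list, 95 of 303 peaks whose hotspot was in the upper 10% in Hormad1KO were found again (31.4%, 26.4 to 36.8), against 4 of 312 other peaks (1.28%, 0.50 to 3.25). Between wild-type percentiles 75 and 95 the shares were 30.9% (17 of 55) and 3.41% (12 of 352). Peak width moved with the outcome as well: the median wild-type width was 5854 bp for shared and 4098 bp for wild-type-only hotspot peaks. In the wider 50% of hotspot peaks the shares were 39.0% (97 of 249) and 5.45% (15 of 275), and in the narrower 50% they were 13.6% (15 of 110) and 2.42% (10 of 414). Only 26 hotspot peaks lay in the lower 75% of the wild-type DMC1 list, of which 9 were found again, so that the strongest 25% of hotspots had a lower share by -22.1 points (-41.3 to -6.73). Without the last 5 Mb of each chromosome and the Y chromosome this difference was -9.44 points and its interval included 0.

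At the sites with the highest wild-type DMC1 values, kept and lost peaks had neighbouring ranks. The 3 shared hotspot peaks with the highest values were chr2:38133057-38141261 in Dennd1a, which encodes an endosomal trafficking protein (wild-type value 20513.5, Hormad1KO value 10257), chr10:92674652-92684712 within 1 kb of Nedd1, a gene for a spindle protein (18957.5 and 8644.5), and the intergenic chr2:98105293-98112681 (17661.5 and 4003). Their wild-type-only counterparts were chr11:89607577-89616426 in Ankfn1 (20822.5 and 9403), chr1:68485783-68492155 in Erbb4, a receptor tyrosine kinase gene (18961 and 6438.5), and the intergenic chr1:67958395-67965615 (18266.5 and 5751.5). Each of these 6 peaks overlapped a wild-type HORMAD1 peak, and each overlapped an IHO1 peak of Hormad1KO. Hotspots with high DMC1 values in Hormad1KO were thus found in both classes.

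The break proteins MEI4 and IHO1 were still listed in Hormad1KO at most of the hotspot peaks, whether or not SYCP3 was. The Hormad1KO MEI4 list covered 89.1% of the shared and 85.8% of the wild-type-only hotspot peaks, a difference of 3.21 points (-3.46 to 8.06). Its IHO1 list covered 77.4% and 70.3%, a difference of 7.12 points (-1.10 to 14), and its DMC1 list 97.1% and 94.4% (2.68 points, -1.86 to 5.13). None of the 3 intervals excludes 0, which leaves room for differences of up to 14 points in favour of the shared peaks. For comparison, 26.9% of all 13808 wild-type DMC1 hotspots had a Hormad1KO MEI4 peak and 12.6% an IHO1 peak, while 7.47% had a wild-type SYCP3 peak and 1.45% a Hormad1KO SYCP3 peak. MEI4 and IHO1 of Hormad1KO were thus listed more often under SYCP3 hotspot peaks of either class than at hotspots in general. The shares count peaks in one case and hotspots in the other, and they were not matched for DMC1 value. Only 26 of the 1048 SYCP3 hotspot peaks lay in the lower 75% of the wild-type DMC1 list. Whether the contrast holds at hotspots of like DMC1 value was not tested. Of the wild-type-only hotspot peaks that had a wild-type MEI4 peak, 539 of 566 (95.2%) also had one in Hormad1KO, and for IHO1 the count was 309 of 398 (77.6%). These lists differ in length. MEI4 had 3828 peaks in Hormad1KO and 1566 in the wild type, and IHO1 had 1860 and 1589. For SYCP3 the numbers were 823 and 1911. How far list length shapes the shares kept by each protein was not tested.

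The wild-type lists of IHO1, MEI4 and HORMAD1 did differ between the 2 classes. A wild-type IHO1 peak lay at 64.2% of the shared and 43.7% of the wild-type-only hotspot peaks (20.5 points, 11.6 to 28.7). For wild-type MEI4 the shares were 72.3% and 62.1% (10.1 points, 1.53 to 17.7). A HORMAD1 peak of the wild type lay at 73.0% of the shared and 48.4% of the wild-type-only hotspot peaks, a difference of 24.6 points (16.0 to 32.1). Conversely, 18.5% of hotspot peaks with HORMAD1 and 7.30% of those without were found again (11.2 points, 7.18 to 15.2). Among peaks in the upper 10% of Hormad1KO DMC1 values the shares were 33.1% (82 of 248) with and 27.0% (30 of 111) without HORMAD1, and among the others they were 6.14% (18 of 293) and 1.77% (7 of 396). Shared hotspot peaks were in the SYCP3 list of Spo11KO more often too, at 74.5% against 27.9% (46.6 points, 38.1 to 53.7). In the Iho1KO list they stood at 44.5% against 5.38% (39.1 points, 30.9 to 47.6). The shares were 5.84% against 0.439% in the Prdm9KO list and 4.38% against 0.988% in the Mei4KO list. Shared hotspot peaks were thus more common in the SYCP3 list of each other knockout.

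Peaks at CTCF sites also differed with HORMAD1. Of the CTCF peaks without a hotspot, 192 of 256 with a wild-type HORMAD1 peak were found again (75%, 69.4 to 79.9), against 58 of 141 without (41.1%, 33.4 to 49.4), a difference of 33.9 points (23.9 to 43.1). The difference was between 30.1 and 38.7 points under the alternatives, and whether it differs from that at hotspot peaks was not tested. In the whole CTCF list of 32676 peaks, 2.14% had a wild-type HORMAD1 peak, 1.51% a wild-type SYCP3 peak and 1.33% a Hormad1KO SYCP3 peak. At these sites, then, the axis proteins met at a small part of CTCF peaks, and SYCP3 was kept in Hormad1KO more often where HORMAD1 had been listed in the wild type.

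The CTCF score, a value per peak deposited by the authors, was higher at kept sites. Its median was 4.10 (25% to 75% of peaks 3.32 to 5.10) for the 250 shared and 3.4 (2.48 to 4.54) for the 147 wild-type-only peaks, and 1.92 over the whole list. Peaks in the upper 25% of the CTCF list were found again in 69.1% of cases (212 of 307) and the others in 42.2% (38 of 90), a difference of 26.8 points (15.2 to 37.7). Among peaks away from gene ends the difference was 12.3 points (-1.36 to 26.6), and the call was lost. It was 16.5 points with the higher-scoring 50% of CTCF peaks and 54.7 points in the wider 50% of SYCP3 peaks. Width did not order these peaks: the shared one was wider in 49.9% of pairs. The CTCF peak with the highest score that was kept, chr9:124256357-124257844 (31.4), lies near the end of chromosome 9. The one with the highest score that was lost, chr14:124801617-124802120 (37.3), lies near the end of chromosome 14 and was in all 4 other SYCP3 lists of knockouts.

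IHO1 and SYCP3 parted at CTCF sites. In the wild type an IHO1 peak lay at 56.4% of the shared and 36.1% of the wild-type-only CTCF peaks. Of the 194 CTCF peaks with wild-type IHO1, 13 had an IHO1 peak in Hormad1KO (6.70%, 3.96 to 11.1), whereas SYCP3 was found again at 141 of them (72.7%, 66.0 to 78.5). At hotspot peaks the order was the opposite: 381 of 486 kept IHO1 (78.4%, 74.5 to 81.8), and SYCP3 was found again at 88 of the same 486 (18.1%, 14.9 to 21.8). The SYCP3 list is shorter in Hormad1KO than in the wild type, and the IHO1 list is not. The effect of list length was not tested. MEI4 was rare at CTCF peaks in either genotype, at 8 of the 250 shared peaks in the wild type and 7 in Hormad1KO.

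**Figure D4:**
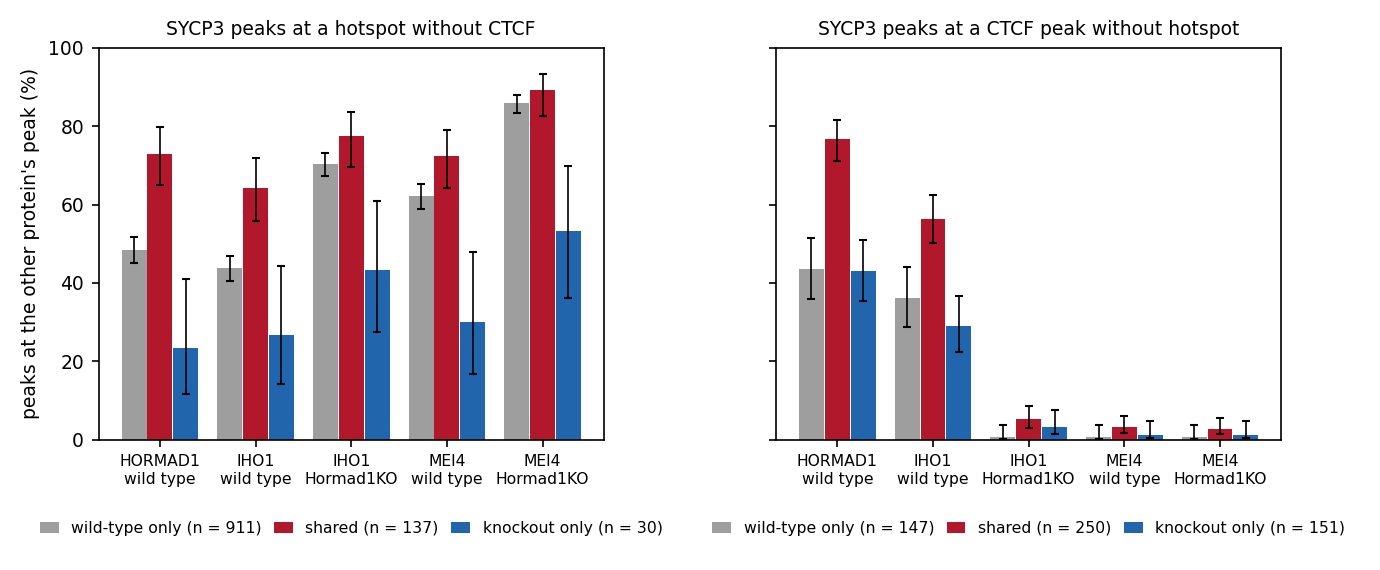
Share of SYCP3 peaks (vertical axis, %) that overlap a HORMAD1, IHO1 or MEI4 peak of the genotype named below the bars, for hotspot peaks (left) and CTCF peaks (right) in the wild-type-only, shared (wild-type intervals) and knockout-only classes, with Wilson 95% intervals. At CTCF peaks of the shared class IHO1 stands at 56.4% in the wild type and 5.20% in Hormad1KO.

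The 303 knockout-only peaks were narrower than the shared ones, at a median of 1573 bp against 2119.5 bp, and few lay at hotspots. Of them 30 were at a hotspot without CTCF (9.90%), 151 at CTCF without a hotspot (49.8%), 11 at both and 111 at neither (36.6%). The share at any CTCF peak was 53.5%, against 52.3% of the shared Hormad1KO peaks, a difference of 1.16 points (-5.90 to 8.17) that changed sign or size with the settings. Wild-type HORMAD1 was listed at 39.3% of knockout-only and 72.5% of shared peaks (-33.2 points, -39.7 to -26.3), a difference of -13.2 points in the wider 50% of peaks. Of the knockout-only peaks, 250 (82.5%, 77.8 to 86.4) lay at a HORMAD1 peak of at least 1 of the 5 genotypes with a HORMAD1 list, against 96.3% of the shared Hormad1KO peaks (-13.8 points, -18.7 to -9.50) and 66.9% of the wild-type-only peaks. SYCP3 itself had been listed at 236 of them (77.9%, 72.9 to 82.2) in at least 1 other knockout, against 91.3% of the shared Hormad1KO peaks (-13.5 points, -18.9 to -8.36) and 38.7% of the wild-type-only peaks. The most were in Iho1KO (201 peaks, 66.3%), which has the longest list, and 67 were in no other knockout's list. The knockout-only CTCF sites named here, by their score, were chrX:150477613-150479183 at Tmem29 and Apex2, an endonuclease gene (CTCF score 10.6) and chr5:130853187-130853938 within 1 kb of Gm40337 (8.76). The widest knockout-only peaks at neither kind of site were chr2:126773486-126788724 at Usp50, chr19:37010901-37020109 at Btaf1 and Cpeb3, and chr4:120532664-120541242 at Slfnl1 and Ctps, the gene for CTP synthase. The genes named are those the peak overlaps or lies within 1 kb of, not always at their start.

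The 30 knockout-only hotspot peaks lay at hotspots of lower wild-type DMC1 rank. Their wild-type values ran from 24 to 15504 with a median of 494.2, against 4019.5 for the shared ones, and in 17.7% of pairs the knockout-only peak had the higher value. Of the 30, 18 had a Hormad1KO DMC1 hotspot (60.0%, against 96.4% of the shared ones), with a median value of 842 at percentile 93.9 of that list. The 3 with the highest wild-type values were the intergenic chr6:37777654-37782672 (15504), chr3:87755829-87760775 in Pear1, an endothelial and platelet receptor gene (8583), and chr1:84803573-84808337 in Trip12, a ubiquitin ligase gene (7640.5). Each of these 3 had a MEI4 peak in Hormad1KO. Over all 30, 53.3% had a Hormad1KO MEI4 peak, against 88.3% of the shared ones (-35.0 points, -52.7 to -17.3), and 43.3% an IHO1 peak, against 78.1% (-34.8 points, -51.9 to -15.7).

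The same SYCP3 and DMC1 lists were also counted by hotspot, as a description and not as separate support. Of 4760 hotspots present in both DMC1 lists, 148 had an SYCP3 peak in both genotypes, 837 in the wild type only, 24 in Hormad1KO only and 3751 in neither. Median percentiles among the 4760 were 94.3 in the wild type and 97.6 in Hormad1KO for the 148, and 87.4 and 81.8 for the 837. For the 24 they were 67.9 and 91.7, and for the remainder 39.9 and 40.8. The 24 hotspots with SYCP3 in Hormad1KO only had the higher median percentile in the Hormad1KO list.

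Gene starts were more common among knockout-only peaks. A start lay within 1 kb of 24.8% of them (20.2 to 29.9; 75 of 303), against 7.88% of the shared Hormad1KO peaks (41 of 520) and 6.99% of the wild-type-only peaks (97 of 1387). The difference between knockout-only and shared peaks was 16.9 points (11.6 to 22.4), and it was 12.5 points (6.03 to 19.9) among CTCF peaks, 34.2 points (17.9 to 52.1) among hotspot peaks, 17.1 points (6.40 to 27.4) among peaks at neither kind of site and 0 points (-24.2 to 31.5) among the few at both. Of the knockout-only peaks at gene starts, 64 of 75 (85.3%, 75.6 to 91.6) were SYCP3 peaks of another knockout too, against 172 of 228 (75.4%, 69.5 to 80.6) away from gene starts and 95.1% of the shared Hormad1KO peaks at gene starts. Promoters whose start lay in a knockout-only peak held AGGNGGC on either strand in 41.8% of cases (32.2 to 52.0; 38 of 91), against 29.4% of all promoters and 21.1% (11.1 to 36.3; 8 of 38) of those in shared Hormad1KO peaks, with 1 peak able to hold several starts. CTCF peaks themselves did not follow this order. They lay at 40.0% (29.7 to 51.3; 30 of 75) of knockout-only and 46.3% (32.1 to 61.3; 19 of 41) of shared Hormad1KO peaks at gene starts.

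Histone genes had the most Hormad1KO peaks of the gene families described here. Of 97 histone genes, 16 had a Hormad1KO SYCP3 peak within 1 kb of their start (16.5%, 10.4 to 25.1) and 1, H4c4, had a wild-type peak (1.03%, 0.182 to 5.61). Over all 21900 protein-coding genes the shares were 0.653% in Hormad1KO and 0.795% in the wild type. The 16 genes all lie on chromosome 13 and share 11 peaks, since neighbours fall in the same one: chr13:22034120-22044985 covers H2ac12, H2bc12, H4c9, H2ac11 and H2bc11. By type, 9 of 12 H4 genes had a peak, in 9 different peaks, among them H4c2 and H4c8, whose starts are printed above. The counts were 2 of 10 for H1 (H1f2 and H1f6), 3 of 19 for H2B, 2 of 44 for H2A and 0 of 12 for H3, in a list taken by symbol that includes histone variants. Of the 11 peaks, 9 overlapped a wild-type HORMAD1 peak, and 10 were knockout only. In the whole Hormad1KO list 303 of 823 peaks were knockout only. Wild-type HORMAD1 lay at 119 of these 303 (39.3%) and at 377 of the 520 shared Hormad1KO peaks (72.5%).

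The other knockouts had SYCP3 peaks at histone genes as well. Prdm9KO had 25 of the 97 genes, Spo11KO 31, Mei4KO 16 and Iho1KO 35, against 1.65%, 6.56%, 3.49% and 18.5% of all protein-coding genes in the same lists. A peak at these clusters was therefore listed in each of the 5 knockouts and, but for H4c4, not in the wild type. Copies of histone genes of the same type can be alike in sequence, which was not measured. How the authors treated reads that fit several copies is not given in the sources used here, so single genes of the family are uncertain. Without the peaks at histone genes, 22.2% of knockout-only and 7.71% of shared peaks lay at gene starts, a difference of 14.5 points (9.37 to 20.0).

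**Figure D5:**
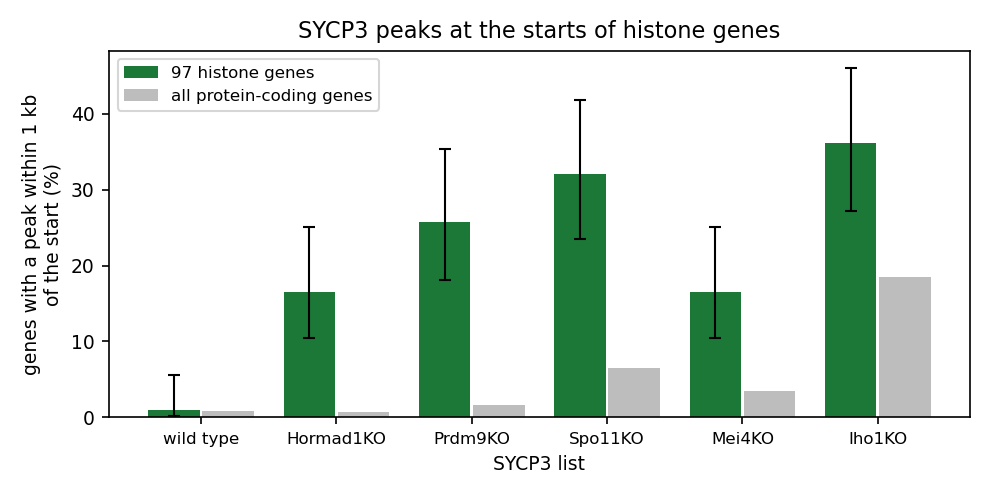
Share of 97 histone genes and of all 21900 protein-coding genes (vertical axis, %) with an SYCP3 peak within 1 kb of the start, in each of the 6 SYCP3 lists (horizontal axis), with Wilson 95% intervals for the histone genes. The wild type has 1.03% and Hormad1KO 16.5% of the histone genes.

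Other gene families gave small counts. Of 400 zinc finger genes named Zfp, 3 had a wild-type peak (0.750%) and 1, Zfp961, a Hormad1KO peak (0.250%). Of 1110 olfactory receptor genes, 2 had a wild-type peak (0.180%) and 0 a Hormad1KO peak. Over all protein-coding genes the shares were 0.795% in the wild type, close to that of the Zfp genes, and 0.653% in Hormad1KO. These counts are too small to order the genotypes.

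The share of peaks near chromosome ends differed between shared and wild-type-only peaks, to an extent that depended on the chromosome and the kind of site. The last 5 Mb of the autosomes held 12% of the shared and 5.62% of the wild-type-only peaks, a difference of 6.40 points (3.55 to 9.65). Chromosomes 4, 9 and 13 gave most of it, with 7.44% and 2.31% (5.14 points, 2.97 to 7.79), while the ends of the other autosomes held 4.58% and 3.32% (1.26 points, -0.570 to 3.56). Among CTCF peaks the shares in the last 5 Mb of the autosomes were 5.20% and 4.08% (1.12 points, -3.90 to 5.24). Among hotspot peaks they were 13.1% and 3.07% (10.1 points, 5.21 to 16.8), and among peaks at neither kind of site 27.2% and 15.8% (11.4 points, 2.51 to 21.1). The ends of the autosomes other than 4, 9 and 13 held 7.30% and 2.74% of the hotspot peaks (4.56 points, 1.03 to 10.2). For peaks at neither kind of site these ends held 4.39% and 5.93% (-1.54 points, -5.94 to 4.39). Hotspot peaks in the last 5 Mb of the autosomes were found again in 18 of 46 cases (39.1%, 26.4 to 53.5). The widest shared peaks at neither kind of site were chr9:124262665-124285996 at Gm39469, chr9:124462374-124476866 at Ppp2r3d and chr9:124287079-124298091 at 2010315B03Rik, all close to the end of chromosome 9. On the Y chromosome 8 of 10 wild-type peaks were found again (80.0%, 49.0 to 94.3) and on the X 20 of 54 (37%, 25.4 to 50.4), of which the hotspot peaks gave 5 of 31. Chromosome 13, which carries the histone cluster, had 23 knockout-only peaks among its 41 Hormad1KO peaks (56.1%, 41.0 to 70.1), and 10 of the 23 lay at histone genes. Over all chromosomes 303 of 823 Hormad1KO peaks were knockout only. Chromosome 5 had a like share, with 17 of 32 (53.1%, 36.4 to 69.1).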

How the data were processed

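SYCP3, HORMAD1, IHO1, MEI4, CTCF and DMC1 peak lists were used, 1 per group. Peaks were made with Bowtie2, MACS2 and the mm10 build, per the submitters' processing notes, and each protein's own knockout was subtracted, per the series' design text. Whether the authors pooled replicates, and their thresholds and depth, are not given in the sources used here. The authors deposited peak coordinates for all lists, a signal value for DMC1 hotspots and a score for CTCF peaks. A peak took the highest value it overlapped. Overlap was at least 1 bp, with Wilson and Newcombe 95% intervals (Python 3.11.15, numpy 2.4.6), called where a difference excluded 0, and no p-values because groups have 1 list. The overlap and interval code was tested on simulated data. Named sites are, per class, the 3 hotspots with the highest wild-type DMC1 value, the 3 CTCF sites with the highest score and the 3 widest at neither. Gene names and promoters are from RefSeq GRCm38.p6, the assembly of mm10. Starts were known for 17492 of 21900 protein-coding genes, and both ends were used for the others. Some named sites and gene lists are not reported here. Members and lists were chosen with earlier results of these data known. Alternatives were a 50% overlap, a 1 kb centre window, autosomes, the wider 50% of SYCP3 peaks, stronger hotspots, higher CTCF scores, peaks away from gene ends and chromosomes without their last 5 Mb and Y.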

Additional observations from a re-analysis of the deposited data

How the results depend on the processing

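Of 147 recomputed values, 128 kept their direction and side of the threshold. The wild-type share found in Hormad1KO was 21.1% for the wider 50% of peaks and 25.4% without the last 5 Mb of each chromosome and Y, an alternative chosen after seeing the data, as was the split at the upper 10% of Hormad1KO DMC1 values. The Hormad1KO share found in the wild type was 49.0% for the wider 50% and 66.6% away from gene ends. The knockout-only minus shared difference at CTCF was -2.72 points with a 1 kb window, -2.28 with higher CTCF scores, -1.05 without the last 5 Mb and 26.6 for the wider 50%. Among hotspot peaks, the strongest minus weaker difference was -12.5 with stronger hotspots and -9.44 without the last 5 Mb, where the intervals included 0. The difference by a Hormad1KO DMC1 hotspot (6.12 points, not called) was 9.84 with a 1 kb window and 11.2 with stronger hotspots, both called, and -4.51 for the wider 50%. The difference by a Hormad1KO IHO1 peak (3.94, not called) was 5.67 with a 1 kb window, 5.76 with stronger hotspots and 5.05 away from gene ends, all called, but -2.81 at 50% overlap and -6.85 for the wider 50%. The difference by CTCF score was 12.3 away from gene ends. The cause of these changes was not tested. No paired analysis was possible because each group has 1 list and the replicates have no values of their own, so leaving out a replicate could not be run either. Depth is unknown for every list, which limits what a missing peak shows.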
